A study of Mus musculus with 125 samples.

Results

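H19, Igf2, Peg3, Mest, Dlk1, Meg3, Cdkn1c, Plagl1, Grb10 and Igf2r are 10 imprinted genes that act on growth, and they were followed in mouse endothelial cells from the embryo to the adult. The genes were taken by symbol, as 10 of the 27998 gene rows of the single-cell tables, and all 10 were found there and among the 49943 RefSeq genes placed on the chromosomes of the peak lists. They were listed because their unique molecular identifiers (UMIs, each standing for 1 captured RNA molecule) were fewer in postnatal than in embryonic brain endothelial cells, so the single-cell levels are given as a description, with no test. Genomic imprinting means that a gene is transcribed mainly from the copy inherited from 1 parent, the choice being held by DNA methylation set in the germ line. Many imprinted genes act on fetal growth, with paternally expressed genes such as Igf2 and Mest promoting it and maternally expressed genes such as H19, Cdkn1c, Grb10 and Igf2r restraining it. Several are highly transcribed in fetal tissues and much less after birth.

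The data used were of 2 kinds: brain cells profiled on the 10x single-cell platform, and chromatin accessibility (ATAC-seq) in nuclei of several organs. The 5 single-cell libraries, 1 per age, came from cells held by anti-CD31 beads. Those of E9.5, E12.5 and E16.5 came from whole embryonic brain treated with collagenase. Those of P8 and of the adult, aged 2 months, came from cortex treated with a neural dissociation kit. The 66 ATAC-seq libraries came from nuclei labelled endothelial (37 libraries, 11 at E12, 14 at P6 and 12 from adults of 2 months) or input, meaning nuclei of the whole tissue (29 libraries, 3, 16 and 10). Trunk, heart and brain were sampled at E12, and kidney, liver, lung, heart, retina and brain after birth. All nuclei, inputs included, came from animals given tamoxifen at 0.015 mg/kg, which switched on a green fluorescent reporter in vessels: the dams at E10.5 for collection at E12.5, the pups at P1 and P3, and the adults 7 days before collection. The protocol places collection of the pups at P7 although their label is P6, and the strain and the Cre driver of the reporter are not given in the sources used here. Nothing says which libraries came from separate animals, so p-values measure the spread between preparations. RNA-seq of nuclear RNA from the same organs was not analysed here.

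In the single-cell data a barcode was called endothelial when it held at least 200 genes, at most 10% mitochondrial UMIs and a UMI of at least 3 of 6 markers, Cdh5, Pecam1, Egfl7, Esam, Tie1 and Kdr. This left 5644, 6347, 3786, 4778 and 3154 barcodes from the youngest library to the oldest, with median UMI counts from 4896 to 10469. The 6 markers stood between 84.7 and 1160 counts per 1000000 UMIs (CPM) in every library. Doublets were not called, and barcodes with 2 or more markers of 1 other cell type made up between 7.11% and 16.5% of the endothelial barcodes. The summed level of 7 mural (pericyte and smooth muscle) markers was 57.9, 67.8, 135, 536 and 1172 CPM in the same order. Age, brain region and dissociation changed together between E16.5 and P8 and cannot be told apart. Sex also differed: the E16.5 library held Xist at 1150 CPM with 0 UMIs of Ddx3y, the P8 and adult libraries held Ddx3y at 104 and 111 CPM with Xist near 0.08 CPM, and the E9.5 and E12.5 libraries held both. In the ATAC-seq data 3 libraries stood apart from others of their group: endothelial brain P6 replicate 1, with 27160 peaks against 87133 and 79903, endothelial heart E12 replicate 3, with 39096 against 101219 to 120456, and kidney P6 input replicate 1, with 115914 peaks against 51111 and 52272. The paired adult inputs differed as much in retina (32560 and 82301), lung (34327 and 78793) and kidney (31045 and 65196).

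Promoter windows of 4 of the genes are printed here. In endothelial libraries, 2 of them carried ATAC-seq peaks at E12 but not in the adult, and 2 carried them at all 3 ages. The windows reach from 250 bases before to 50 bases after a RefSeq start on GRCm38.p6, the assembly known as mm10, and matched 8 of the 10 genes. Capitals mark the GC box GGGCGG and the TATA box TATAAA, searched on both strands. The GC box occurred in 35.7% and the TATA box in 13.6% of all 32851 such windows. The Igf2 window is the 3′-most of its 4, the Meg3 window covers the start of the gene and the Mest window lies inside the gene. Those of Igf2 and Meg3 were open at E12 and in no adult endothelial library, while those of Mest and Igf2r were open at all 3 ages.

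Igf2, chr7:142657447-142657746, minus strand: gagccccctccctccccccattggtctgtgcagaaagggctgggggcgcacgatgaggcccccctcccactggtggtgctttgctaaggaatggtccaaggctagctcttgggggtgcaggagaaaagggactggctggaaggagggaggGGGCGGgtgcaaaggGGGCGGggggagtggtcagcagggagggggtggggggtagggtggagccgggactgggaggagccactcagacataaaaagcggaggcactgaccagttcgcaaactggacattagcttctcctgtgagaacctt
Meg3, chr12:109540746-109541045, plus strand: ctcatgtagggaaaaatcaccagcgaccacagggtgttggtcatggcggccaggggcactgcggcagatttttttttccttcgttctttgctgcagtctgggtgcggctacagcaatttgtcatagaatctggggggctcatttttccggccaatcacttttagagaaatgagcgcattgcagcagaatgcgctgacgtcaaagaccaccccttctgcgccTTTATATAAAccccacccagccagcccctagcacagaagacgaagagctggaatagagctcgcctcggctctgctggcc
Mest, chr6:30737800-30738099, plus strand: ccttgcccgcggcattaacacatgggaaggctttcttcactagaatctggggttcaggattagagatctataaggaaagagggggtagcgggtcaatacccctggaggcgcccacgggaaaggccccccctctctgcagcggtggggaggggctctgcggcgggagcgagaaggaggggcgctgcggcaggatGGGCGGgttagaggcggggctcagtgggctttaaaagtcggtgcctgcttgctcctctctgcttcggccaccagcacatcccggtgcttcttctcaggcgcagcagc
Igf2r, chr17:12769657-12769956, minus strand: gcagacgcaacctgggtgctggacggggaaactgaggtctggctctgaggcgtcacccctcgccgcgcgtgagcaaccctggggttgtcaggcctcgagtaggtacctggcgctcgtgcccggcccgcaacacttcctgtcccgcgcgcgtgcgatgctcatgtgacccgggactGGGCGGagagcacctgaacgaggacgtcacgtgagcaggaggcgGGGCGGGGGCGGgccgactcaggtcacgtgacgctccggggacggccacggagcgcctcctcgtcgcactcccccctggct

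The Igf2 window held 2 GC boxes and 7 CpG dinucleotides, against a median of 7 over all windows. The Meg3 window held 2 TATA box matches that overlap each other on opposite strands, with 13 CpG. The Mest window held 1 GC box and 17 CpG, and the Igf2r window 3 GC boxes and 34 CpG, above the upper quartile of 20. These matches describe the letters only.

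H19 and Mest were the most abundant of the 10 genes at E9.5 and E12.5 and among the least abundant in the adult. H19, a maternally expressed long noncoding RNA (chr7:142575530-142578146), stood at 1041, 1287 and 445 CPM in the embryonic libraries (95% exact Poisson interval of the first 1032 to 1051, covering counting error only, as do all intervals here), at 1.04 CPM in P8 (0.801 to 1.33) and at 0 in the adult. The 3 embryonic values were all high and both postnatal values were at or near 0. From E16.5 to P8 H19 was 427-fold lower (334 to 556), and from E12.5 to the adult at least 9972-fold lower, taking 3 counts as the limit that 0 of 23250196 UMIs allows. The share of endothelial barcodes with an H19 UMI was 95%, 93.1%, 33.6%, 0.335% and 0%, and after every barcode was thinned to 1500 UMIs it was 70.7%, 64.8%, 17.3%, 0.0636% and 0%. In 280 myeloid barcodes of the E12.5 library, 43.6% held an H19 UMI at a level of 108 CPM, at a median of 6615 UMIs against 10469 in the endothelial barcodes. In 123 epithelial barcodes of the E9.5 library H19 was nearer the endothelial level, at 763 CPM with a UMI in 87.8%, at a median of 5296 UMIs. Against the endothelial level, these epithelial barcodes held less Igf2, Mest, Cdkn1c, Plagl1 and Igf2r and more Peg3 (1.47-fold), Meg3 (1.76-fold), Grb10 (1.57-fold) and Dlk1 (5.08-fold), while the myeloid barcodes held less of all 10 genes. No other cell type reached 50 barcodes in a library. Empty droplets were not examined, so free RNA and expression in the myeloid and epithelial barcodes were not separated.

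Mest, which encodes a protein of the alpha/beta hydrolase fold (chr6:30733506-30748466), stood at 1211, 2717 and 551 CPM in the embryonic libraries, 26.1 in P8 and 2.06 in the adult (1.52 to 2.74). It ranked 47 among 18867 detected genes at E12.5 and 10897 among 17029 in the adult. It was more widely detected than H19 at P8, where 19.9% of barcodes held a Mest UMI and 0.335% an H19 UMI. In the adult 1.33% of barcodes held a Mest UMI. Mest was 21.1-fold lower at P8 than at E16.5 (20.0 to 22.2) and 12.7-fold lower in the adult than at P8 (9.50 to 17.2). The myeloid barcodes at E12.5 held it at 114 CPM with a share of 51.8%, against 99% of endothelial barcodes, and the epithelial barcodes at E9.5 at 456 CPM with a share of 76.4%.

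Igf2, the fetal growth factor that signals through the type 1 IGF receptor (chr7:142650768-142666816), stood at 310, 294, 59.0, 13.1 and 14.9 CPM in the order of age. It was high at E9.5 and E12.5, lower at E16.5 and lowest after birth, with the P8 and adult intervals (12.2 to 14.1 and 13.3 to 16.5) overlapping. It was 4.98-fold lower at E16.5 than at E12.5 (4.78 to 5.20) and 4.49-fold lower at P8 than at E16.5 (4.15 to 4.87). Plagl1, a zinc finger transcription factor known to act on other imprinted genes (chr10:13090832-13131694), stood at 164, 216, 97.6, 15.2 and 1.38 CPM. Like Mest, it was lower again in the adult than at P8, 11-fold (7.75 to 16.2).

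Meg3 and Dlk1, neighbours on chromosome 12, differed in level. Meg3, a maternally expressed long noncoding RNA (chr12:109540996-109571729), stood at 407, 259, 162, 45.6 and 24.2 CPM, lower at every later age. Dlk1, a transmembrane relative of the Notch ligands (chr12:109452485-109463336), stood at 17.7, 19.2, 18.9, 0.430 and 0.129 CPM, the last 2 from 26 and 3 UMIs. Summed over all endothelial barcodes, Dlk1 was level through the embryonic libraries, with E9.5 to E12.5 and E12.5 to E16.5 intervals of the ratio that include 1, and 43.9-fold lower at P8 than at E16.5 (29.8 to 67.7). Within barcodes split by mural and mesenchymal markers it was not level.

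Cdkn1c, an inhibitor of cyclin-dependent kinases (chr7:143458339-143461059), kept the highest level after birth. It stood at 749, 568, 796, 178 and 244 CPM, and 45.2% and 52.3% of P8 and adult barcodes held a UMI. It was 4.46-fold lower at P8 than at E16.5 (4.36 to 4.56), and the adult value was above that at P8. Grb10, an adaptor that dampens signalling from the insulin and IGF receptors (chr11:11930499-12037428), stood at 177, 180, 102, 72.1 and 80.7 CPM, the narrowest range of the 10. Igf2r, the receptor that carries IGF2 to the lysosome (chr17:12682406-12769706), stood at 81.4, 38.3, 38.7, 21.1 and 11.3 CPM. Peg3, a zinc finger protein (chr7:6703892-6730462), stood at 510, 37.0, 16.3, 10.46 and 11.01 CPM. Most of the Peg3 difference lay before mid-gestation ended: it was 13.8-fold lower at E12.5 than at E9.5 (13.3 to 14.3) and 1.56-fold lower at P8 than at E16.5 (1.39 to 1.74).

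**Figure D1:**
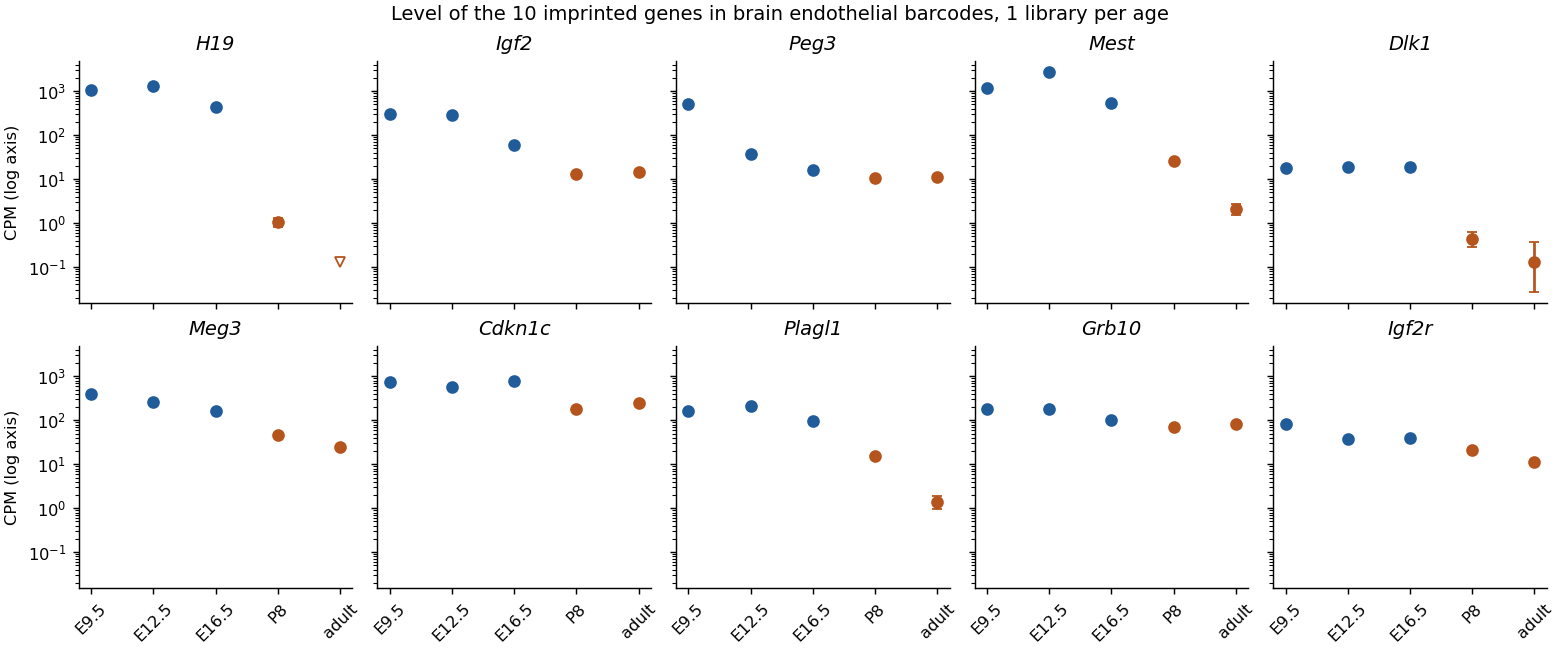
Level of each gene (CPM, log axis) in the endothelial barcodes of the 5 brain libraries, 1 library per age. Points are library sums with 95% exact Poisson intervals, and an open triangle marks a library with fewer than 3 UMIs, drawn at the limit of 3 counts. H19 drops from 445 CPM at E16.5 to 1.04 at P8, while Grb10 stays between 72.1 and 180 CPM.

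With both postnatal libraries required to be at least 2-fold below each of the 3 embryonic libraries, 7 of the 10 genes were lower after birth, against 1.77% of the 8293 genes with a mean of at least 10 CPM. All 10 genes passed that minimum, and since they were listed for this difference the count is no evidence of its own. Cdkn1c lay just inside, with 568 CPM in its lowest embryonic library and 244 in its highest postnatal one. Igf2r (38.3 against 21.1), Peg3 (16.3 against 11.01) and Grb10 (102 against 80.7) lay outside. Leaving out barcodes with 2 or more markers of another cell type added Igf2r and kept the other 7. The same 7 were obtained with 2 or 4 markers in place of 3, with median-ratio size factors, without globin and mitochondrial genes, after thinning, and with every barcode weighing the same. No test was run, since the genes were listed for this difference.

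The step from E16.5 to P8 was not the only one. Between E9.5 and E12.5, 2 of the genes were at least 2-fold lower (Peg3 and Igf2r) and 1 was at least 2-fold higher (Mest), against 7.01% and 20.5% of all genes. Between E12.5 and E16.5 the count was 5 lower against 5.57%, between E16.5 and P8 it was 7 against 7.36%, and between P8 and the adult it was 4 against 11.5%. None of the 10 was at least 2-fold higher in these 3 steps, against 8.18%, 10.3% and 10.4% of all genes. The median log2 ratio of the postnatal to the embryonic mean was -3.91 over the 10 genes and 0.05 over all 8293.

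Within the E16.5 library, H19 and Igf2 were spread over the endothelial barcodes more unevenly than at the earlier ages. The 5% of barcodes with the most H19 held 67.7% of its UMIs at E16.5, against 21.8% at E9.5 and 26.5% at E12.5. Barcodes were then sorted by how many of 7 arterial markers they held, Gja4, Gja5, Bmx, Efnb2, Sema3g, Hey1 and Unc5b. At E16.5 H19 stood at 73.1 CPM in the 969 barcodes with no arterial marker, 155 with 1, 124 with 2 and 985 in the 1192 with 3 or more. Igf2 stood at 9.38, 25.7, 22.1 and 124.6 CPM in the same classes. Both were high in the last class only.

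The 2 ends of that order differed in depth, with medians of 6902 and 11677 UMIs, and deeper barcodes show more markers. After thinning to 1500 UMIs, H19 was still 12.9-fold and Igf2 8.76-fold higher in barcodes with 2 or more arterial markers than in those with none at E16.5. At E9.5 and E12.5 the same thinned ratios were 1.95 and 2.33 for H19 and 2.07 and 1.85 for Igf2. Barcodes free of mural and mesenchymal markers gave the same order at E16.5, with H19 at 77.7 CPM without arterial markers and 870 with 3 or more, and Igf2 at 8.47 and 87.3. Without thinning, 77.7% of the 564 barcodes with an Igf2 UMI at E16.5 also held H19, against 33.6% of all endothelial barcodes. These shares are not corrected for depth or for arterial markers. At P8, 59 of the 63 H19 UMIs lay in the 936 barcodes with 3 or more arterial markers, at 4.61 CPM (3.51 to 5.95). Only 16 barcodes of that library held any H19, 3 of them 10 or more UMIs (at most 13), and 45 of the 63 UMIs lay in barcodes with a mural or mesenchymal marker, so the value rests on few barcodes.

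Cdkn1c followed the arterial markers at every age. Its level without and with 3 or more markers was 374 and 1429 CPM in the E9.5 library, 286 and 1166 in E12.5, 365 and 1435 in E16.5, 56.7 and 560 in P8, and 111 and 422 in the adult. After thinning it was 2.41, 6.10, 5.61, 6.96 and 2.48-fold higher with 2 or more markers than with none, in the order of age. It was also lower in barcodes with 2 or more of 7 cycling markers (Mki67, Top2a, Cenpf, Birc5, Cdk1, Ccnb1 and Hmmr), with thinned ratios of 0.54, 0.42, 0.41 and 0.14 from E9.5 to P8. The last of these rests on 11 Cdkn1c UMIs in 231 barcodes. Mest did not share the arterial order, with thinned ratios of 0.99, 0.72, 0.52 and 0.46 from E9.5 to P8, and Grb10 stayed between 0.80 and 1.14 over the same ages. In the adult the Mest ratio of 4.77 rests on 3 UMIs in each class, and that of Grb10 was 0.63. These splits were chosen after the data were seen and compare cells of 1 library.

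**Figure D2:**
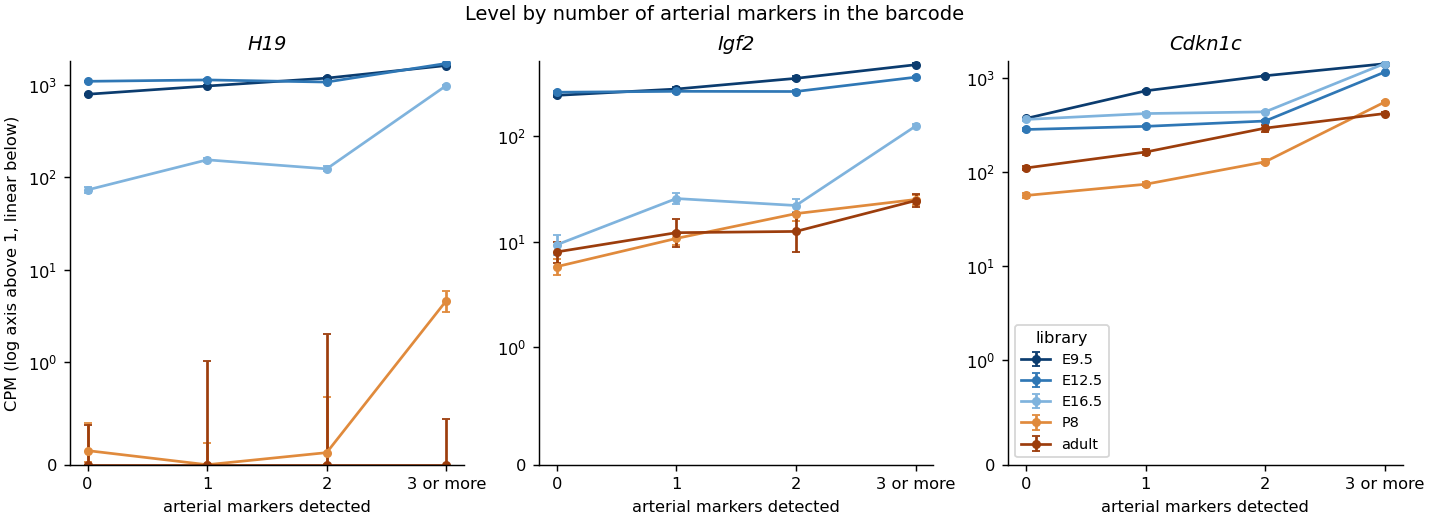
Level of H19, Igf2 and Cdkn1c (CPM, log axis above 1 and linear below) in endothelial barcodes with 0, 1, 2 or at least 3 of 7 arterial markers, 1 line per library, with 95% exact Poisson intervals. At E16.5 H19 stands at 73.1 CPM without arterial markers and 985 with 3 or more, and Cdkn1c is highest in the last class in all 5 libraries.

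Several of the genes differed in level between endothelial barcodes with and without mural and mesenchymal markers, by more than 10-fold in at least 1 library for Igf2, Meg3 and Dlk1. The share of all genes that differ as much was not counted, so this cannot be read as a trait of these genes. The barcodes of this split were not thinned to equal depth, and deeper barcodes show more markers. Barcodes with at least 1 of 14 such markers made up 30.4%, 20.7%, 15.5%, 28.7% and 31.2% of the endothelial barcodes in the order of age. Igf2 at P8 stood at 31.9 CPM in them and at 1.22 CPM in the rest, and in the adult at 28.7 and 2.82. Meg3 stood at 543 and 69.3 CPM at E16.5, at 114 and 2.35 at P8, and at 47.0 and 4.27 in the adult. Dlk1 stood at 62.9 and 3.76 CPM at E12.5 and at 88.2 and 1.93 at E16.5. So the levels of Igf2 and Meg3 after birth, and that of Dlk1 from E12.5 on, lay largely in barcodes that also carried mural or mesenchymal marker RNA.

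In barcodes without those markers Igf2 ran 284, 285, 39.4, 1.22 and 2.82 CPM and Meg3 369, 216, 69.3, 2.35 and 4.27, so both were still lower after birth. Dlk1 ran 14.6, 3.76, 1.93, 0 and 0 CPM in these barcodes, and 23.4, 62.9, 88.2, 1.11 and 0.277 in those with a marker, so its embryonic values went in opposite directions in the 2 sets. H19 ran 927, 1280, 381, 0.487 and 0 CPM without a marker and 1252, 1306, 707, 1.92 and 0 with one, so it too was higher with the markers at E9.5, E16.5 and P8. At E9.5 Cdkn1c stood at 1177 CPM with and 517 without a marker, Igf2r at 113 and 64.2, and Peg3 at 614 and 453. The 2 sets were close for Mest, at 2564 CPM with and 2771 without the markers at E12.5 and 26.8 and 25.7 at P8, and for Plagl1, at 14.8 and 15.4 at P8.

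**Figure D3:**
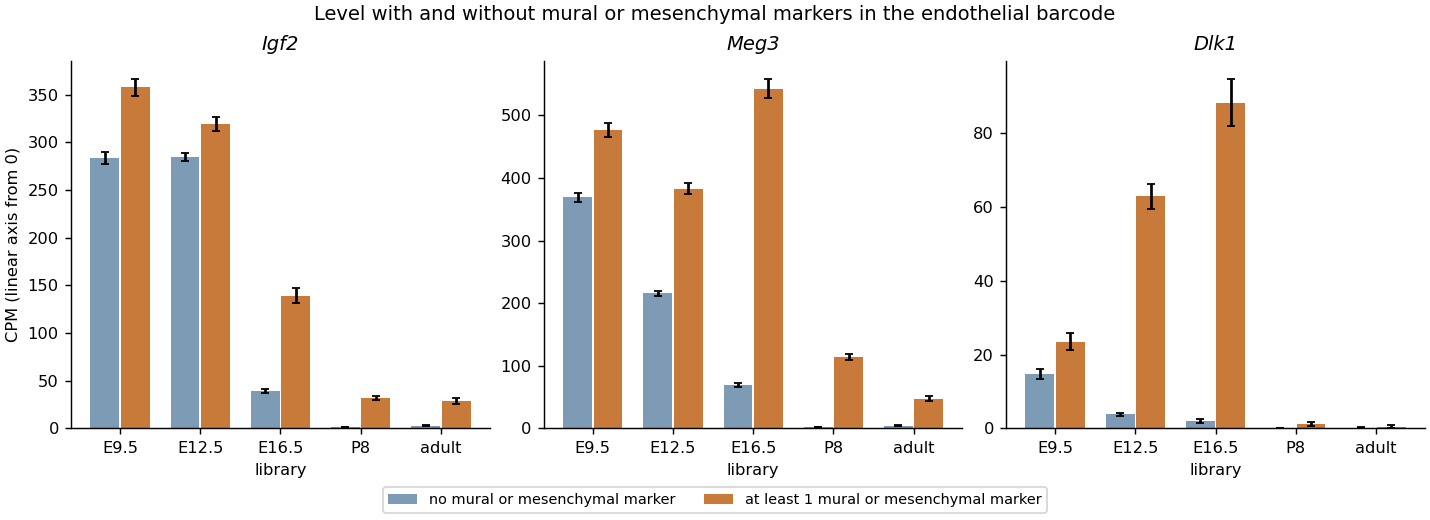
Level of Igf2, Meg3 and Dlk1 (CPM, linear axes from 0 that differ between panels) in endothelial barcodes without (blue) and with (orange) at least 1 mural or mesenchymal marker, by library, with 95% exact Poisson intervals. At P8 Igf2 stands at 1.22 CPM without and 31.9 CPM with such a marker.

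Other genes of the same pathways were taken from lists chosen with earlier results of these data known. Of 44 other imprinted genes, 42 were in the tables and 20 passed the minimum level. Of these 4 were lower after birth by the same rule, which 1.77% of all genes met, and 1 was higher, which 4.21% met. The lower ones were Peg10 (70.5, 46.0, 5.44, 0.481 and 0.516 CPM), Asb4 (101, 165, 100.3, 22.9 and 9.16), Nnat, and Snrpn, which is named because it was counted. Ddc, which encodes aromatic amino acid decarboxylase, was higher, from 2.34 CPM at E9.5 to 135 in the adult. Zrsr1 (5.44 CPM at E9.5 and 47.3 in the adult) and Gab1 (17.2 and 56.1) came next in that direction without meeting the rule. The median log2 ratio of postnatal to embryonic mean was -0.20 over the 20 and 0.05 over all genes.

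Of 13 genes around insulin-like growth factors, 11 passed and 4 were lower after birth, against 1.77% of all genes. The median log2 ratio was -2.60 over the 11 and 0.05 over all genes. The 4 were Igf2bp1, Igf2bp2 and Igf2bp3, which bind Igf2 and other mRNAs in the fetus, and Igfbp2, a secreted binding protein. Igf2bp1 ran 173, 63.8, 21.9, 0.132 and 0.043 CPM. The receptors ran the other way without meeting the rule for higher genes: Igf1r stood at 33.1, 73.9, 292, 357 and 1045 CPM and Insr at 8.57, 38.4, 82.0, 150 and 173. Igfbp7, a binding protein abundant in brain endothelium, stood at 8.07 CPM at E9.5 and between 1069 and 3777 at the later ages. The ligand Igf1 stood at 45.6 and 28.9 CPM at E9.5 and E12.5 and at or under 2.30 CPM at the 3 later ages.

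The genes whose course over the 5 libraries was most like that of each gene were found by the Euclidean distance of log2(CPM + 1) after each gene was centred on its own mean, over 8293 genes. These are descriptions over 5 libraries. For H19 the nearest was Mest, at 2.86, followed by Xist, at 2.96, whose course follows the sex of the libraries. For Mest the nearest were Marcksl1, at 1.87, and Plvap, a protein of endothelial fenestrae, at 2.39. For Dlk1 the imprinted gene Nnat was nearest, at 1.31, and for Cdkn1c the imprinted gene Snrpn, at 0.37. For Igf2 it was Mmp2, at 0.70, for Plagl1 Sox11, at 0.48, for Peg3 Gm266, at 1.01, for Meg3 Pmf1, at 0.65, for Igf2r Ap2s1, at 0.33, and for Grb10 Hspa9, at 0.12.

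Chromatin near the genes was read from the authors' ATAC-seq peak lists, 1 per library, by counting peaks that overlap a gene or lie within 50 kb of it (mm10). The labels were checked at the endothelial markers. In lists cut to the same length, mean peak counts near the 6 markers were higher in endothelial than input libraries in 81 of 90 combinations of marker, organ and age. Cdh5 and Kdr were higher in 15 of 15, Pecam1 and Egfl7 in 14, Esam in 13 and Tie1 in 10. List length itself differed with age. Endothelial lists held 39096 to 120456 peaks at E12 (median 101233), 27160 to 92863 at P6 (median 69067.5) and 19464 to 47334 in the adult (median 36755.5). In bulk nuclei a smaller share of a cell type and fewer open sites per cell cannot be told apart.

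Every gene had fewer peaks in adult than in P6 endothelial libraries. Near H19 there were 1 to 5 peaks in the 12 adult libraries (median 1.5) and 1 to 16 in the 14 P6 libraries (median 6.5). The ranges overlapped over all organs, but every adult library was below every P6 library within 5 of the 6 organs. The mean difference over organs was -4.86 peaks (exact 2-sided permutation of library labels within organs, Benjamini-Hochberg adjusted over all genes, p = 0.00174). Near Dlk1 no adult endothelial library held a peak, while P6 libraries held 0 to 10 (median 3), a difference of -3.56 (same exact test, adjusted p = 0.000877). Near Meg3 adult libraries held 0 or 1 and P6 libraries 0 to 7 with a median of 0, the P6 peaks lying in brain, heart and retina. Its difference passed in that set of libraries but not when any of 9 of the 26 libraries was left out.

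All 10 genes passed this test in the lower direction, but so did 71.4% of the 46894 genes tested, while 0.104% were higher, so the count says little about the 10 genes. The differences ran from -0.94 peaks for Meg3 (exact permutation test, adjusted p = 0.0298) to -9.67 for Igf2r (adjusted p = 0.000877), with a median of -3.60 against -1.67 over all genes. These are peak counts, not scaled to the length of the window or to the number of peaks in it. A longer gene has a wider window, and Igf2r spans 87.3 kb against 2.62 kb for H19. The medians therefore do not show a larger relative loss near the 10 genes. When every list was cut to its 19464 strongest peaks, 1 of the 10, Igf2r, still passed, at 4.17 peaks in the adult and 6.33 at P6 (exact permutation test, adjusted p = 0.0429), against 1.04% of all genes. H19 then stood at 0.75 and 1.42 peaks (adjusted p = 0.284 by the same exact test) and Mest at 2.75 and 2.92, and neither Dlk1 nor Meg3 had a peak left in these libraries. Grb10 and Cdkn1c had more peaks in the adult under equal lists, 1.67 against 0.917 and 1.83 against 1.56, and neither passed the test.

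Over all organs the median number of peaks in endothelial libraries was highest at E12 for each of the 10 genes. The share of all genes with this order was not counted, and the E12 lists were the longest and partly from other organs. The order did not hold in every organ. In heart the P6 median was above the E12 median for Igf2 (11 and 11 peaks at P6 against 9, 11, 4 and 10 at E12) and Igf2r (25 and 26 against 25, 22, 12 and 23), the lowest E12 value of each coming from the short list of replicate 3. The heart mean was also higher at P6 than at E12 for H19 (14.5 against 13.5), Mest (11 against 10.75) and Cdkn1c (10 against 9.25). Their heart medians were not higher at P6, with 14.5 against 15, 11 against 11.5 and 10 against 10 at E12. The H19 mean at E12 included the 8 peaks of the short list of replicate 3. At E12, H19 had 18 to 21 peaks in the 3 brain endothelial libraries, 15, 16, 8 and 15 in heart and 18, 16, 16 and 21 in trunk. Meg3 had 8 to 14 in brain, 10, 9, 0 and 10 in heart (lowest in the short list of replicate 3) and 5 to 7 in trunk, against 0 to 2 in P6 brain and heart. Dlk1 had 5 to 16 peaks and Plagl1 6 to 17 over the 11 libraries. In brain and heart, the organs sampled at both ages, the differences from E12 to P6 were -8.21 peaks for Meg3, -6.96 for Dlk1 and -6.21 for Plagl1.

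None of the 10 genes passed the adjusted test between P6 and E12 of the 300 label sets, nor did any of the 47216 genes (0%), and the smallest p the design gives is 0.00333. By the unadjusted exact permutation test 3 of the 10 had p under 0.05, Dlk1 (p = 0.0133), Meg3 (p = 0.02) and Plagl1 (p = 0.02), against 17.3% of all genes. The lists were also shorter at P6. With equal lists Dlk1 was at 0 peaks at P6 and 1.17 at E12 (unadjusted exact permutation p = 0.0333), Plagl1 at 1.92 and 2.79 (p = 0.08 by the same permutation test), and Meg3 at 0 in both, while Igf2r had more peaks at P6, 6.17 against 2.67 (p = 0.0233 by the same permutation test), and 11.4% of all genes had p under 0.05. Without heart E12 replicate 3, the library with the fewest tags, 4 genes passed (Peg3, Dlk1, Meg3 and Plagl1), as did 10613 of all genes. This comparison and the one between adult and P6 share the brain and heart P6 libraries.

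**Figure D4:**
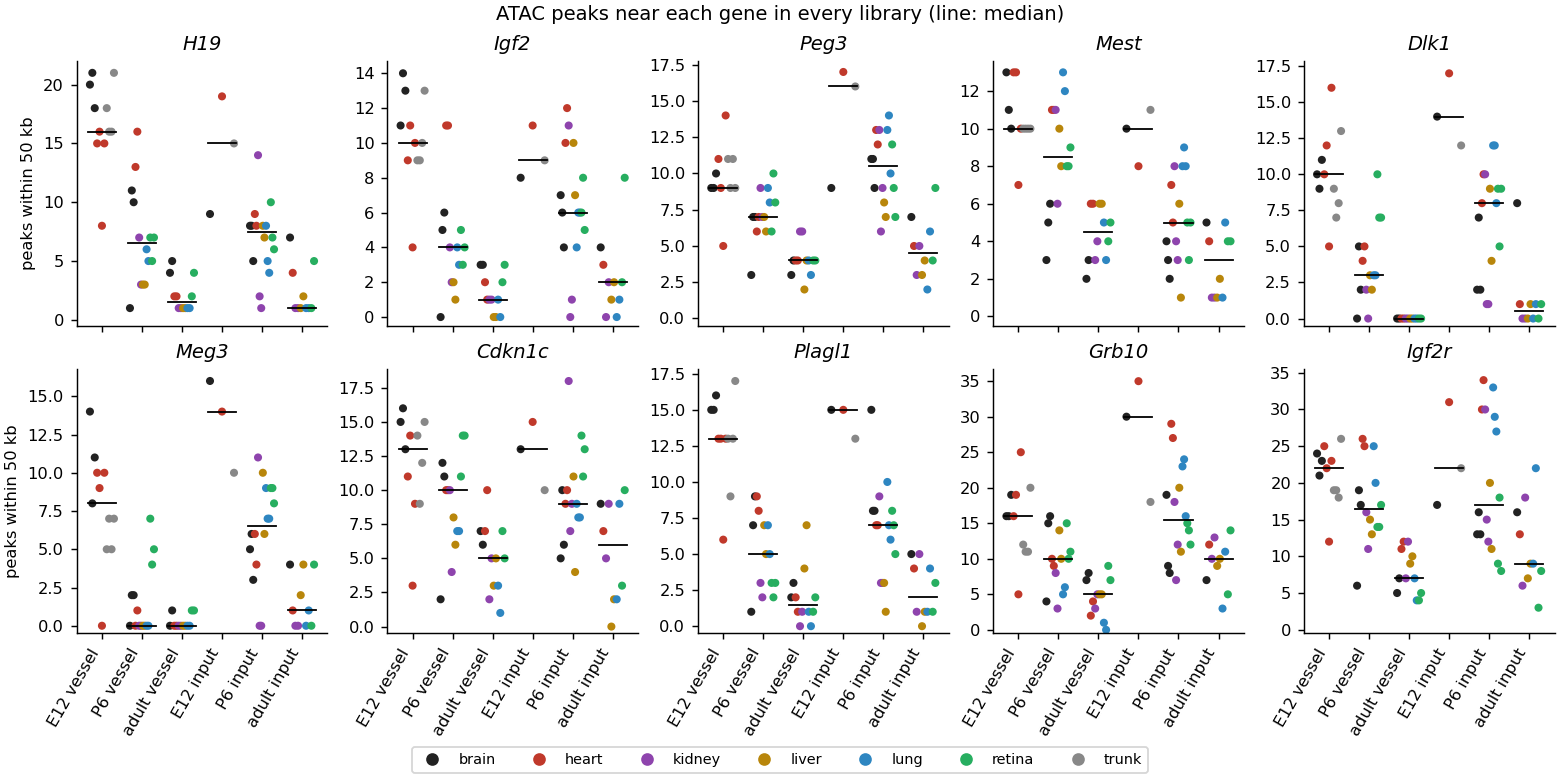
Number of ATAC peaks within 50 kb of each gene in every library, by age and nuclei (vessel means labelled endothelial), coloured by organ, with a line at the median. Vertical axes are linear and differ between panels. Dlk1 has 0 peaks in all 12 adult endothelial libraries and 5 to 16 in the 11 at E12.

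With full lists, Mest stood apart at P6 when endothelial nuclei were compared with whole tissue. At P6 the 14 endothelial libraries held 3 to 13 peaks near Mest (median 8.5) and the 16 input libraries 1 to 9 (median 5). The ranges overlapped over all organs, but the mean was higher in endothelial nuclei in 6 of 6 organs and every endothelial library was above every input library in 4 of them. The mean difference was 3.97 peaks (exact permutation within organs, adjusted p = 0.000982), and Mest was the only one of the 10 genes that passed in this direction, which 2.07% of the 48119 genes did. With equal lists the means were 2.92 and 1.00 peaks (exact permutation, adjusted p = 0.00123), where 11.9% of genes passed in that direction. Mest was then not alone, since Igf2r and Igf2 passed as higher too, Igf2r by a larger difference. In the adult the difference was 1.33 peaks and did not pass (exact permutation, adjusted p = 0.164).

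In the opposite direction 4 genes passed at P6, against 30.8% of all genes. Meg3 had a median of 0 peaks in endothelial and 6.5 in input libraries, a mean difference of -5.08 (exact permutation, adjusted p = 0.000682). Its mean was lower in 6 of 6 organs, but in kidney only through input replicate 1, with 11 peaks against 0 in the other 4 kidney libraries. Without that library the difference was -4.47 peaks and still passed. Grb10 differed by -7.72 (adjusted p = 0.0146), Dlk1 by -3.36 (0.0185) and Peg3 by -3.03 (0.00788), all by the same exact test. With equal lists Grb10 held, at 0.917 against 2.89 peaks (exact permutation, adjusted p = 0.00412), while Meg3, Dlk1 and Peg3 did not pass. Igf2r turned from -2.89 to 3.31 peaks and Igf2 from -2.36 to 0.667 with equal lists, both passing as higher in endothelial nuclei (exact permutation, adjusted p = 0.000499 and 0.00951). Mest, Meg3 and Grb10 still passed with any 1 library left out, kidney P6 input replicate 1 and brain P6 endothelial replicate 1 included.

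In the adult 2 of the 10 genes were lower in endothelial than input libraries, against 19.3% of all genes. That count is near the share of all genes and says little about the 10. The genes were Meg3, by 1.5 peaks (exact permutation, adjusted p = 0.0451), and Grb10, by 4.75 (same exact test, adjusted p = 0.0307). None of the 10 was higher, against 0.317% of all genes. Grb10 held with equal lists, at 1.67 against 3.92 peaks (exact permutation, adjusted p = 0.0354), and Meg3 did not. Of the 10 genes, 0 passed with −log10 q of at least 5, with a 5 kb window or with the replicate number as a block. Under each of these 3 settings 0% of all genes passed, so the outcome is not particular to the 10. With a 100 kb window 4 passed, against 29% of all genes, and by covered bases 1 did, against 14.1%. Both adult calls were fragile: with 1 library left out at a time Meg3 failed the test in 19 of 22 cases and Grb10 in 10, with -3.9 peaks without the only heart input library. The 3 cases in which Meg3 passed were those without the shorter input list of retina, lung or kidney. The P6 and adult differences were each tested on their own, and the change between them was not tested.

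Promoter windows differed in the ages at which they carried a peak. The window at the start of Meg3 carried a peak in 10 of 11 E12, 5 of 14 P6 and 0 of 12 adult endothelial libraries, and in 3 of 3, 11 of 16 and 2 of 10 input libraries. The 3′-most Igf2 window was open in 10, 2 and 0 of the endothelial libraries and in 3, 2 and 0 of the input libraries. Of all 32851 windows, 1.84% were open in at least 10 of 11 E12 and no adult endothelial library. H19 has no window in the table, so peaks within 500 bases of either end of the gene were counted, and there were peaks in 11 of 11, 3 of 14 and 0 of 12 endothelial libraries, against 1.91% of 49943 genes that were as open early and closed in the adult. Input libraries gave 3 of 3, 8 of 16 and 0 of 10 at H19.

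For 5 of the 8 genes with a window, Mest, Igf2r, Plagl1, Grb10 and Peg3, at least 1 window carried a peak in 7 or more of the 12 adult endothelial libraries, against 36.8% of the 27025 genes with a window and 34.6% of single windows. So did the ends of Cdkn1c, against 25.7% of all gene ends. The Mest window printed above, which lies inside the gene and not at the start of its span, carried a peak in 11 of 11, 14 of 14 and 11 of 12 endothelial libraries. In input libraries it did so in 3 of 3, 15 of 16 and 5 of 10. These libraries are of all organs sampled, while the Mest RNA level of 2.06 CPM is from adult brain only. Igf2r and either end of Cdkn1c were open in all 37 endothelial libraries. In the 12 adult ones a peak in every library was found for 27% of all windows and 19.7% of all gene ends. Plagl1 was open in 11, 14 and 10, Grb10 in 11, 14 and 8, and Peg3 in 11, 12 and 7 of the endothelial libraries. The 5′-most Igf2 window carried peaks in 10, 10 and 5 endothelial and 0, 4 and 1 input libraries. It differed from the 3′-most one in endothelial libraries at P6 and in the adult, where it was open more often, and in input libraries. The Dlk1 window, chr12:109452573-109452872, carried a peak in 1 endothelial library, at E12. The merged region chr12:109452757-109453821 inside the gene overlaps the end of that window. It carried a peak in 10, 3 and 0 endothelial and 3, 10 and 1 input libraries. In all but 1 of these endothelial libraries the peak did not reach the window.

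**Figure D5:**
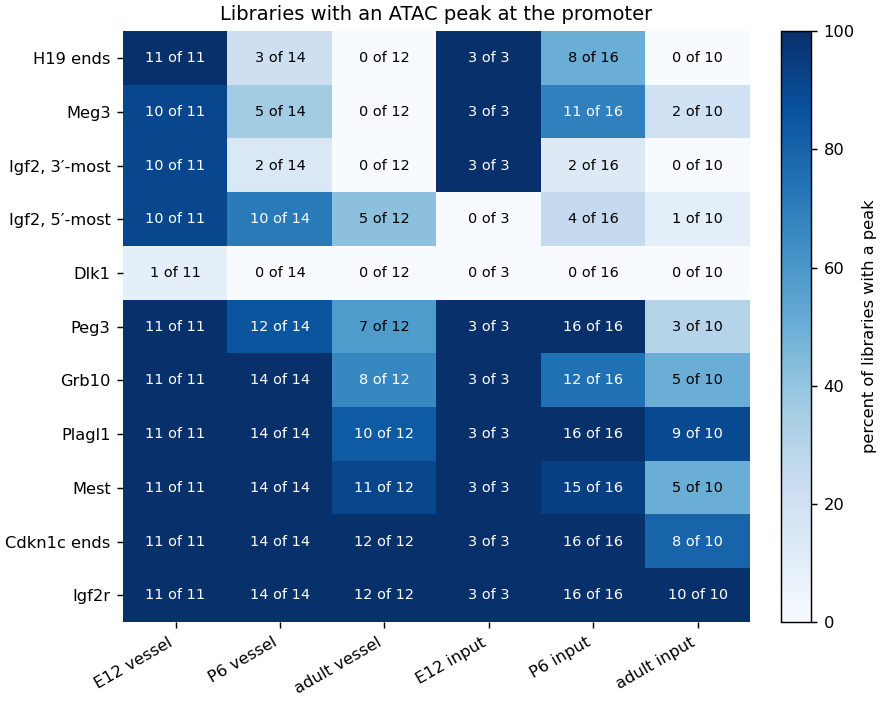
Number of libraries with an ATAC peak at each promoter window (rows) by age and nuclei (columns, vessel means labelled endothelial), shaded by the percent of libraries. H19 and Cdkn1c have no window and are counted within 500 bases of either end of the gene. The top 3 rows go from 10 or 11 of 11 libraries at E12 to 0 of 12 in the adult, while Mest, Cdkn1c and Igf2r stay at 11 or 12 of 12.

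Merging all lists gave 409 regions within 50 kb of the genes, of which 220 appeared in an E12, 187 in a P6 and 87 in an adult endothelial list. Only 10 regions were found in at least 10 endothelial and at most 1 input list, and 4 of these lay near H19. The most frequent of the 4, chr7:142589744-142590592, lies 11598 bases from H19 on the side of Igf2 and carried a peak in 11 of 11 E12, 7 of 14 P6, 0 of 12 adult and 0 of 29 input libraries. A region near Mest, chr6:30719935-30720807, 12699 bases before the gene, was found in 9, 10 and 2 endothelial libraries and 1 input library. The other 5 lay near Mest (1), Plagl1 (2) and Igf2r (2). These regions were picked by the lists in which they occur, so the counts are a description. Regions near other genes were not counted, and endothelial lists were longest at E12 and shortest in the adult. The counts therefore cannot be read as a trait of H19 or of the 10 genes.

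H19 and Igf2 share a region in both of their windows, chr7:142610611-142611923, which was open in 11, 7 and 0 of the endothelial and 3, 6 and 2 of the input libraries. Dlk1 and Meg3 share chr12:109512213-109513630, open in 10 of 11 E12 endothelial libraries and in no P6 or adult one, with peaks in 1, 3 and 1 of the input libraries. Peak counts of the 2 genes of each pair are therefore not independent.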

How the data were processed

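Single-cell UMI counts per gene and barcode were deposited by the authors after Cell Ranger and Seurat 4.0.4, per the submitters' processing notes. The E16.5 rows carry no names of their own and follow the other tables' gene order (correlation over genes with E12.5 of 0.975, and 0.207 when moved by 1 row). Between 0.373% and 1.28% of a library's barcodes recurred in another library. Counts were summed over endothelial barcodes, and CPM is per 1000000 of those UMIs (23250196 to 80364390 per library). Intervals are 95% exact Poisson for levels and exact binomial for ratios of counts. ATAC-seq peaks were called per library by the authors with MACS 2.1.2 on mm10, per the file headers, from 10139069 to 59082479 tags. The deposited −log10 q-values and fold enrichments were used only to rank or filter peaks within a list. Peaks within 50 kb were tested by exact permutation within organs, called at an adjusted p under 0.05, and the test was run on simulated data first. All 10 genes are named, with the 3 genes of the largest and the 3 of the smallest postnatal to embryonic ratio in each related list (mean of at least 10 CPM) and the nearest genes by distance. The genes, lists and tests were chosen with earlier results of these data known. Python 3.11.15, numpy 2.4.6, scipy 1.17.1 and pandas 2.3.3 were used.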

Additional observations from a re-analysis of the deposited data

Results flagged for a closer look

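Only heart and trunk endothelial nuclei at E12 had 4 libraries, and within them 5 values lay far from the others of their group. All 5 came from 2 libraries, so they are not independent, and the 1 in 20 groups that chance flags cannot be set against their number. Heart E12 endothelial replicate 3 held 8 peaks near H19 against 15, 15 and 16, 0 near Meg3 against 9, 10 and 10, and 6 near Plagl1 against 13 in each of the other 3. That library has 10139069 tags and 39096 peaks. Trunk E12 endothelial replicate 4 held 20 peaks near Grb10 against 11, 11 and 12, and 26 near Igf2r against 18, 19 and 19.

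For 2 genes the endothelial and input libraries of P6 did not overlap in opposite directions in different organs, which was not tested. The share of all genes that do so was not counted. With 2 libraries on each side, as in heart and liver, such separation is easily reached, so it cannot be read as a trait of these genes. Near H19 the endothelial mean was 6 peaks above the input mean in heart (13 and 16 against 8 and 9) and differed by -4.5 peaks in liver (3 and 3 against 7 and 8). Near Plagl1 it was 1.5 peaks above in heart and 4 above in liver, and differed by -4 peaks in retina.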

How the results depend on the processing

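The single-cell alternatives carry no test, and the count of genes lower after birth was 7 or 8 under every one. For ATAC-seq, the share of all genes tested that passed in either direction stands in brackets. With equal numbers of top peaks 1 gene passed between adult and P6 endothelial libraries (2.26%) in place of 10 (71.5%), 0 between P6 and E12 (0%) as before, 4 between endothelial and input at P6 (20.4%) in place of 5 (32.9%), and 1 in the adult (3.46%) in place of 2 (19.6%). Between endothelial and input adult libraries 0 passed with −log10 q of at least 5 (0%), 0 with a 5 kb window (0%), 4 with 100 kb (29%), 1 by covered bases (14.1%) and 0 with the replicate block (0%). Leaving out 1 library at a time gave 9 to 10 genes between adult and P6 (65.3% to 76.6%), 0 to 4 between P6 and E12 (0% to 23%), 4 to 6 between endothelial and input at P6 (23.6% to 38.4%) and 0 to 5 in the adult (0% to 34.3%).

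Whether replicate numbers pair the libraries could not be settled. Deviations of same-numbered libraries correlated between -0.245 and 0.0758 (adult and P6), with 0 of 12 pairs over 0.1. Between P6 and E12 they ran from -0.091 to 0.114, with 1 of 5 pairs over 0.1. Between endothelial and input they ran from -0.141 to 0.311 at P6, with 4 of 12 pairs over 0.1. In the adult they ran from -0.375 to 0.349, with 4 of 8 pairs over 0.1. With the number as a block, 9, 0, 3 and 0 genes passed in these comparisons, against 55.2%, 0%, 19.9% and 0% of all genes.

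Directions that turned were as follows, in peaks, with the cause not tested. With equal lists, Cdkn1c 0.278 and Grb10 0.75 between adult and P6. Between P6 and E12, Igf2 0.375, Peg3 0.292, Mest 0.542 and Igf2r 3.5. Between endothelial and input, H19 0.611, Igf2 0.667 and Igf2r 3.31 at P6, and Cdkn1c 0.25, Plagl1 0.0833 and Igf2r 0.25 in the adult. With a 5 kb window, Peg3 0.125, Cdkn1c 0.0833 and Igf2r 0.792 between P6 and E12, Igf2 0.222 at P6, and Igf2 0.0833, Peg3 0.333 and Cdkn1c 0.5 in the adult. With −log10 q of at least 5, H19 0.361 and Cdkn1c 0.194 at P6, and with the block H19 0.2. Leaving out libraries, H19 ran from -0.444 to 0.639 at P6, with 12 turns, and Igf2r from -3.25 to 0.167 between P6 and E12.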
